A study of Homo sapiens with 2 samples.

Results

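Growth factor kinases, BAG co-chaperones and regulators of cell survival made up 9 of the 84 target genes of a quantitative PCR panel for apoptosis. They are the kinases IGF1R (well E08 of the plate), AKT1 (A03), BRAF (C03), ABL1 (A01) and DAPK1 (D12), the co-chaperones BAG1 (A06) and BAG3 (A07), and the survival regulators BFAR (B05) and NOL3 (F04). They were measured in LNCaP cells, an established, androgen-sensitive prostate adenocarcinoma line of human origin. The study holds 2 samples, 1 of cells treated with C-PC (C-phycocyanin, the blue light-harvesting pigment protein of cyanobacteria) at 500 µg/mL for 24 h, and 1 of untreated control cells. The comparison asked how the transcript levels of these genes in treated cells stood to those in untreated cells. The 9 genes were picked for their function and found by plate position. The rule uses no measured value, but it was written with earlier results of these data known. The deposited tables give plate positions alone, and gene names follow the layout of the PAHS-012Z array named in the labels. That layout, with 84 target genes in alphabetical order of symbol, was not in the tables used here. Which gene lies in which well was therefore not checked against a gene table, and every gene name below rests on this layout. All 89 symbols were found in RefSeq, which does not check their positions.

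A growth factor that binds IGF1R, the type I insulin-like growth factor receptor, switches on its tyrosine kinase. The signal runs through phosphoinositide 3-kinase to the serine/threonine kinase AKT1, which phosphorylates and restrains several death proteins, and through RAS to BRAF, the kinase at the head of the MEK and ERK cascade. BAG proteins bind the ATPase domain of the chaperone HSP70 and speed its release of nucleotide. BAG1 also binds BCL2, and its long form enhances the activity of the androgen receptor, whereas BAG3 is induced by stress and steers misfolded proteins to autophagy. BFAR is a membrane protein that binds BCL2 family members and caspase-8, and NOL3, also called ARC, blocks death receptor and mitochondrial death signals through its caspase recruitment domain (CARD). ABL1 is a tyrosine kinase of the nucleus and cytoplasm, and DAPK1 is a calmodulin-regulated kinase with a death domain that promotes cell death.

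Levels are given as the threshold cycle (Ct), the PCR cycle at which fluorescence crosses a threshold. A Ct later by 1 cycle stands for a 2-fold lower template level at full efficiency. The files hold 1 Ct per gene and sample. The labels speak of 3 PCR runs per sample, but the runs' own values were not analysed here, so there is no spread between runs or cultures, no test and no p-value, and each value describes these 2 samples. All 5 reference genes crossed later in the C-PC sample, by 0.21 cycles for RPLP0, 0.57 for ACTB, 0.75 for B2M, 1.03 for GAPDH and 1.21 for HPRT1. Folds were scaled to the mean of these shifts, 0.76 ± 0.39 cycles (SD over the 5 reference genes). The ± 0.39 beside the log2 folds is this SD, and it includes no measurement error of the gene itself. In the 72 target genes with a Ct under 35 in both samples the median shift was 0.24 cycles, so that scaling to this plate median places every gene 0.51 lower on the log2 scale. The panel holds no prostate marker against which to check the cells. Of 9 leukocyte genes on it, 1 was under Ct 35 in both samples, 2 in the C-PC sample only (CD70 and TNFSF8), 3 in the control only and 3 in neither. Their part in the results was not tested.

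All 9 genes had a Ct under 35 in both samples. Relative to the 5 reference genes, BAG1 and DAPK1 were higher by 2-fold or more in C-PC cells, and none of the 9 was lower by 2-fold or more. The 2 of 9 are 22.2% of the genes, beside 20.8% of all 72 detected target genes that were higher by as much. Of those 72, 1.39% were lower by 2-fold or more. The share of the 9 thus lay near that of the panel. Their median log2 fold was 0.39, with quartiles at 0.14 and 0.79, and that of the 72 was 0.51, with quartiles at 0.22 and 0.87. With the plate median in their place, 0 of the 9 were higher by 2-fold or more, beside 9.72% of the 72, and 1 of the 9, IGF1R, was lower by as much, beside 6.94% of the 72. With no scaling at all, 0 of the 9 were higher by 2-fold or more, beside 5.56% of the 72, and IGF1R and AKT1 were lower by as much, beside 12.5% of the 72.

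**Figure D1:**
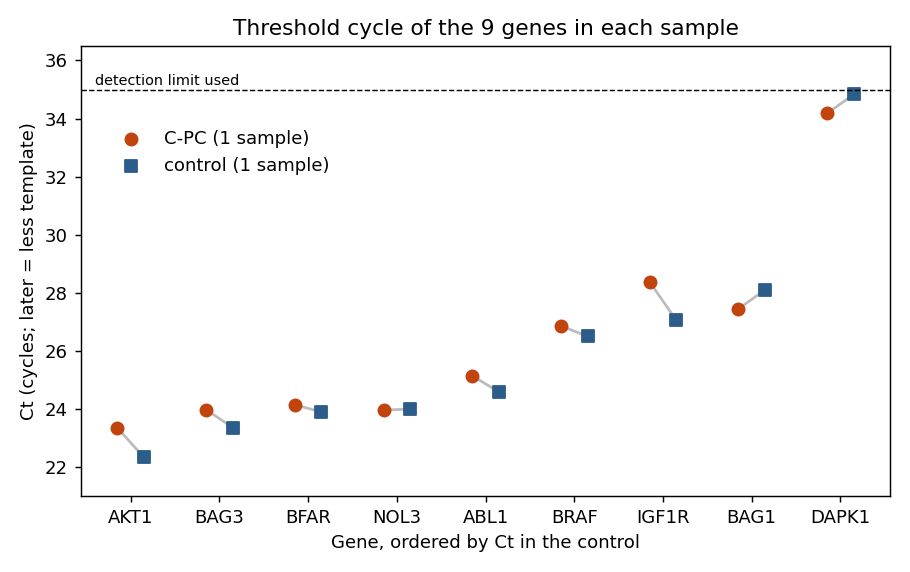
Threshold cycle (Ct, in cycles) of each of the 9 genes, with a circle for the C-PC sample and a square for the control, 1 sample each; the dashed line is the limit of 35. The symbols lie close together for most genes, BAG1 and DAPK1 cross earlier in C-PC, IGF1R and AKT1 cross more than 1 cycle later, and DAPK1 lies just under the limit.

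The genes crossed over a wide span of cycles, with the order AKT1, BAG3, BFAR, NOL3, ABL1, BRAF, IGF1R, BAG1 and DAPK1 in the control. In the C-PC sample NOL3 moved ahead of BAG3 and BFAR, and BAG1 moved ahead of IGF1R. BAG3, BFAR and NOL3 lay within the SD of the reference shifts of one another in the C-PC sample, at 24.0, 24.1 and 24.0. Assays differ in product length and efficiency, so this is an order of crossing and not of transcript abundance.

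IGF1R was the lowest of the 9 in fold. Its Ct was 28.4 in C-PC cells, against 27.1 in control cells, a shift of 1.32 cycles. The C-PC value was thus later than the control value by more than that of any reference gene. Relative to the 5 reference genes its log2 fold was -0.56 ± 0.39, a level 1.48-fold lower in C-PC, and over single reference genes the log2 fold lay between -1.10 and -0.11. IGF1R was lower in the C-PC sample under all 8 scalings compared here, which are the mean of the 5 reference genes, each of them alone, the plate median and no reference. The scalings move all genes by the same amount and are not separate checks. With the plate median it was 2.11-fold lower, so the scaling decided whether it lay past 2-fold. Of the other 63 detected target genes, 3 had a lower fold than IGF1R and 60 a higher one.

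AKT1, the kinase downstream of the receptor, was the earliest of the 9 to cross, at 23.3 in C-PC cells, against 22.3 in control cells. Its shift of 1.02 cycles lay within the range of the reference genes. The log2 fold was -0.26 ± 0.39 relative to their mean and -0.77 relative to the plate median, and its sign turned with GAPDH alone or HPRT1 alone, which gave up to 0.19. The difference from the reference genes was thus smaller than their own spread.

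The kinases BRAF and ABL1 lay closer to the middle of the panel than IGF1R and AKT1. Of the other 63 detected target genes, 38 had a higher fold than BRAF and 49 a higher fold than ABL1. BRAF crossed at 26.9 in C-PC cells, against 26.5 in control cells, a log2 fold of 0.39 ± 0.39. ABL1 crossed at 25.1 in C-PC cells, against 24.6 in control cells, a log2 fold of 0.20 ± 0.39. Both values changed sign with the scaling, to -0.12 for BRAF and -0.32 for ABL1 relative to the plate median. Neither was 2-fold away under any of the 8 scalings.

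DAPK1 was near the limit of detection. Its Ct was 34.2 in C-PC cells, against 34.8 in control cells, which is 0.82 and 0.17 cycles inside the limit of 35. The log2 fold was 1.40 ± 0.39, a level 2.65-fold higher in C-PC, and 0.89 relative to the plate median. With this control Ct, a Ct under 35 in C-PC cells needed a shift of less than 0.17 cycles. Every reference gene and the plate median shifted by more, RPLP0 the least at 0.21 cycles. Once DAPK1 counted as detected, its sign relative to them was thus fixed by the limit. Of 9 target genes with a control Ct from 33 to under 35, DAPK1 included, 5 stood at exactly 35 in the C-PC sample, and 4, DAPK1 among them, were under 35. A Ct of exactly 35 may stand for a well without amplification, which the sources used here do not say, so the limit of 35 may not mark a measured level. With a Ct limit of 32, DAPK1 was left out and 1 of 8 genes, BAG1, was past 2-fold.

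The panel holds 1 more kinase, RIPK2, which acts downstream of NOD receptors. Its log2 fold was 0.30 ± 0.39. Over these 6 kinases the median log2 fold was 0.25 relative to the reference genes and -0.26 relative to the plate median, with DAPK1 past 2-fold higher by the first and IGF1R past 2-fold lower by the second. Of 7 further genes tied to the IGF1R and AKT1 survival route, 6 were detected in both samples. XIAP, an inhibitor of caspases, was 2.03-fold higher, but 1.42-fold with the plate median. The other 5 lay within 2-fold, so that 1 of the 6 was past 2-fold higher, beside 20.8% of all 72 detected target genes. BAD, the BCL2 family protein that AKT1 inactivates, had a log2 fold of -0.48 ± 0.39. The median of the 6 was 0.38, below the 0.51 of all 72. Of 10 death domain genes beside DAPK1, 4 were higher by 2-fold or more and none lower, beside 20.8% and 1.39% of the 72. These were the death receptors FAS, TNFRSF10A, TNFRSF10B and TNFRSF21. TNFRSF21 was 2.01-fold higher and lay within 2-fold relative to the plate median. By that scaling 3 of the 10 were past 2-fold higher and 0 lower, beside 9.72% and 6.94% of the 72. The median log2 fold of the 10 was 0.90, beside 0.51 for all 72, and 0.38 relative to the plate median.

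**Figure D2:**
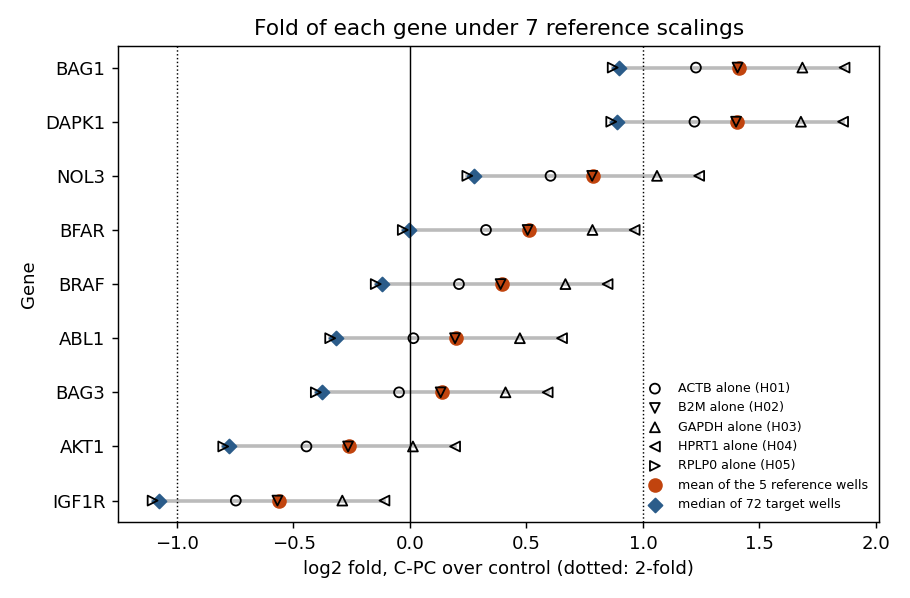
Log2 fold, C-PC over control, of each of the 9 genes under 7 scalings: open symbols for each reference gene alone, a filled circle for the mean of the 5, and a diamond for the median of 72 target genes; the grey line spans the single reference genes and dotted lines mark 2-fold. BAG1, DAPK1 and NOL3 lie right of 0 and IGF1R left of 0 under every scaling drawn, and the other 5 genes cross 0.

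The BAG co-chaperones differed from each other. BAG1 crossed at 27.4 in C-PC cells, against 28.1 in control cells, a shift of -0.66 cycles. Its log2 fold was 1.41 ± 0.39, a level 2.66-fold higher in C-PC, with a range of 0.87 to 1.87 over single reference genes. It stayed higher under all 8 scalings but reached 2-fold under 5 of them. It was 1.86-fold higher relative to the plate median, and RPLP0 alone or no reference also left it within 2-fold. Of the other 63 detected target genes, 7 had a higher fold. BAG3 crossed at 24.0 in C-PC cells, against 23.4 in control cells, a shift of 0.62 cycles, which is within the range of the reference genes. Its log2 fold was 0.14 ± 0.39, and -0.38 relative to the plate median.

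A ratio of 2 target genes does not depend on any reference gene. The BAG1 to BAG3 ratio was 2.42-fold higher in the C-PC sample, a difference of 1.27 cycles. No pair of reference genes differed by as much as 1 cycle, but HPRT1 and RPLP0 came close to it, at 0.995 cycles. The BAG1 to IGF1R ratio was 3.93-fold higher in C-PC, the largest difference among the 36 pairs of the 9 genes. The NOL3 to IGF1R ratio was 2.55-fold higher. In all, 13 of the 36 pairs (36.1%) differed by at least 1 cycle, beside 32.4% of the pairs among the 72 detected target genes.

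The sequences before the annotated starts of BAG1, BAG3 and IGF1R are shown because these genes give the gene pairs described above, BAG1 with BAG3 and BAG1 with IGF1R. The PCR measured transcripts and no promoter activity. Each run is the 250 bases up to the start, 5′ to 3′ in the direction of transcription, from RefSeq on GRCh38.p14. Capitals mark letters of the motifs searched on both strands: the GC box GGGCGG, the CCAAT box, the TATA box TATAAA, the AP-1 site TGACTCA and the heat shock element core GAANNTTC. BAG1 is at chr9:33264709-33264958 on the minus strand, BAG3 at chr10:119651130-119651379 on the plus strand and IGF1R at chr15:98648289-98648538 on the plus strand.
BAG1: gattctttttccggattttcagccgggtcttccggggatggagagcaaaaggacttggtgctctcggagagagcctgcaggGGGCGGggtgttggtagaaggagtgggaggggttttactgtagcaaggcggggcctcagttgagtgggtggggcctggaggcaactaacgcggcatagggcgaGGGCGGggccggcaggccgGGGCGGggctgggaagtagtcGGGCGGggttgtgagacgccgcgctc
BAG3: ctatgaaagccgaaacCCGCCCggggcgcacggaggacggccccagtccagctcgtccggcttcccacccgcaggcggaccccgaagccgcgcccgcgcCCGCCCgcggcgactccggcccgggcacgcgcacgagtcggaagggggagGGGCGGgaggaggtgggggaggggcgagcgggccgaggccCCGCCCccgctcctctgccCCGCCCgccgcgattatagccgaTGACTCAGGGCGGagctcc
IGF1R: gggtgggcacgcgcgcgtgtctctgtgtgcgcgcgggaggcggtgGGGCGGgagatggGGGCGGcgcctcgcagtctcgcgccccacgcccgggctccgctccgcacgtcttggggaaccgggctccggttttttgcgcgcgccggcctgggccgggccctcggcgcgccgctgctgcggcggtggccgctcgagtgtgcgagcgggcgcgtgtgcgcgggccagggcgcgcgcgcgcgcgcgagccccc

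BAG1 held 4 GC boxes, BAG3 held 6 and IGF1R held 2. BAG3 also held 1 AP-1 site, directly followed by its last GC box with no overlap. The other motifs were not in these 3 windows. A GC box was in 8 of the 9 genes' windows, with BRAF the exception, beside 42.3% of 27305 promoters of the same length and 71.0% of 62 of the panel's promoters. An AP-1 site was in 1 of the 9, beside 4.16% of all promoters. The CCAAT box was in 3 of the 9, beside 33.0% of all. The TATA box was in 0 of the 9, beside 11.1% of all, and the heat shock element core GAANNTTC in 0 of the 9, beside 5.85% of all. Other arrangements of the heat shock element were not searched. The windows held a median of 32 CpG dinucleotides over the 9 genes, with 48 in IGF1R, 37 in BAG3 and 18 in BAG1, beside a median of 22.5 over the 62 promoters of the panel and 11 over all promoters. These matches describe the letters of the reference sequence and say nothing of binding in these cells.

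NOL3 crossed at 24.0 in both samples, with a shift of -0.03 cycles. Relative to the reference genes, which shifted later, its log2 fold was 0.79 ± 0.39, a level 1.73-fold higher in C-PC. It was 0.27 relative to the plate median and positive under all 8 scalings. With GAPDH alone, at 1.06, and HPRT1 alone, at 1.24, it was past 2-fold. Among 13 other CARD genes, which include caspases and adaptors with the same domain, the median log2 fold was 0.33. BIRC3, an inhibitor of apoptosis protein, was the only one of them to reach 2-fold, at 2.34-fold higher. This is 1 of 13, beside 20.8% of all 72 detected target genes. Relative to the plate median BIRC3 was within 2-fold. By that scaling 1 of the 13, the inflammasome adaptor PYCARD, was past 2-fold lower, beside 6.94% of the 72. PYCARD crossed late, at 33.6 in C-PC cells, against 31.9 in control cells. BFAR crossed at 24.1 in C-PC cells, against 23.9 in control cells. Its log2 fold of 0.51 ± 0.39 equalled the panel median to 2 decimals.

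Of 8 genes whose proteins bind BAG1, BAG3, BFAR or NOL3, 3 were higher by 2-fold or more and none lower, beside 20.8% and 1.39% of the 72. Their median log2 fold was 0.79, beside 0.51 for all 72, and 0.28 relative to the plate median. By that scaling 2 of the 8 were past 2-fold higher and 1 lower, beside 9.72% and 6.94% of the 72. BAX, the pore-forming death protein that NOL3 binds, was 5.48-fold higher. FAS, the receptor whose signal NOL3 blocks, was 7.81-fold higher. FAS is also among the death domain genes counted above, so the counts of these lists are not separate. BCL2L1, which encodes the survival protein BCL-XL, was 2.26-fold higher and within 2-fold relative to the plate median. BCL2, the partner of BAG1, had a log2 fold of -0.54 ± 0.39, and was past 2-fold in the lower direction relative to the plate median.

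**Figure D3:**
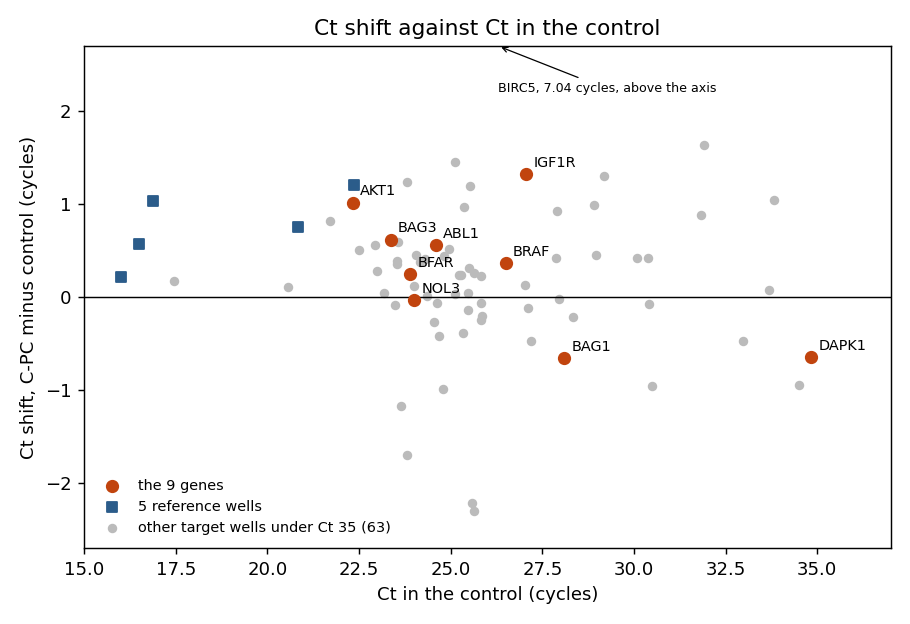
Ct shift (C-PC minus control, in cycles) against Ct in the control (cycles) for the 9 genes (named circles), the 5 reference genes (squares) and the other 63 detected target genes (grey circles); BIRC5, at 7.04 cycles, lies above the axis. The 9 genes spread from -0.66 to 1.32 cycles, IGF1R and AKT1 lie among the higher shifts, and DAPK1 has the latest control Ct of the detected genes.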

How the data were processed

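Total RNA (1000 ng) of 1 C-PC and 1 control sample was reverse transcribed and amplified for 40 cycles with SYBR Green on the PAHS-012Z array, per the labels' protocols. The authors deposited 3 tables of 89 wells: the Ct, not normalized, per the file headers; the fold change, C-PC over control, with housekeeping genes as the base, per the file headers; and a ratio with no stated scale. For the 9 genes the log2 of that deposited ratio was the mean Ct of the 5 reference wells minus the gene's Ct, within 0.0049. The authors' deposited fold changes of the 9 genes differed from those recalculated here by at most 0.0051 on the log2 scale. The threshold setting and the way runs were combined are not given in the sources used here.

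From the Ct, each log2 fold was minus the Ct difference (C-PC minus control), after subtraction of the reference wells' mean difference. Genes under Ct 35 in both samples counted as detected, and 2-fold was the threshold. The SD of the 5 reference shifts stood in for an error. With 1 sample per group no test was made, and PCR cycles carry no read depth, so the number of samples limits the precision. The text names all 9 genes, the reference genes, members of fixed gene lists past 2-fold and, for each of the 9, the gene nearest in Ct. RIPK2, BAD, BCL2, CD70, TNFSF8 and BIRC5 were named besides. The 9 genes and the lists were chosen with earlier results of these data known. Alternatives were each reference gene alone, the mean of 4 of the 5, no reference, the plate median, the authors' deposited values, Ct limits of 32 and 37 or none, 1.9-fold amplification per cycle, and thresholds of 1.5-fold and 3-fold; leaving out DAPK1 was added after the data were seen. The calculation was tested on simulated data with a common delay in every well and no noise. That checks the arithmetic alone, and not the effect of reference genes that shift unequally. The work was done in Python 3.11.15 with pandas 2.3.3, numpy 2.4.6 and matplotlib 3.10.9.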

Additional observations from a re-analysis of the deposited data

How the results depend on the processing

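The scaling set the counts. The median log2 fold of the 9 genes, 0.39 with the mean of the 5 reference wells, was 0.85 with H04 (HPRT1) alone, -0.15 with H05 (RPLP0) alone, -0.36 without a reference and -0.12 with the plate median. The number at least 2-fold higher, 2 at first, was 0 with H05 alone, without a reference and with the plate median. It was 1 with a Ct limit of 32 or without DAPK1 (a choice made after the data were seen). That number was 3 with H03 (GAPDH) alone or H04 alone. With the threshold itself changed, 3 genes were at least 1.5-fold higher and 0 were at least 3-fold higher. The number at least 2-fold lower, 0 at first, was 1 with the plate median or H05 alone, and 2 without a reference. Of 61 alternative medians and counts, 48 stayed within the SD of the reference shifts or within 1.5 times, the counts of 3 among them. Of 161 alternative log2 folds of single genes, 125 moved by less than that SD. The 36 that moved further came from H04 alone, H05 alone, no reference and the plate median. A change of reference moves all 9 genes alike, and a Ct limit leaves the folds of kept genes unchanged. The authors' deposited values closely matched the same Ct and reference wells. The 161 values are therefore not separate checks. Neither BAG1 nor DAPK1 changed sign under any alternative that kept it. For DAPK1 the Ct limit of 35 largely fixed this, as its control Ct lay 0.17 cycles inside that limit. No paired analysis was possible because there was a single sample per condition, and leaving out a replicate was not possible for the same reason. Only DAPK1 of the 9 genes lay near the Ct limit.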

Other observations

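For each of the 9 genes the detected target gene outside the set with the nearest Ct in both samples was found, by the sum of the 2 absolute Ct differences, so that a gene can be set beside one amplified over the same cycles. The match used the Ct of both samples, so the log2 folds of a pair can differ by no more than this sum. A similar fold within a pair was thus built in by the matching and is no separate comparison. These pairs describe 2 samples and say nothing of shared function. BFAR and NOL3 both had BIRC2, an inhibitor of apoptosis protein, as the nearest, at sums of 0.12 and 0.18 cycles, and BIRC2 had a log2 fold of 0.63. BAG3 lay nearest to BNIP2, at a sum of 0.23 cycles, whose log2 fold was 0.37. ABL1 lay nearest to BIRC6, with a log2 fold of 0.32, and AKT1 nearest to MCL1, the short-lived survival protein of the BCL2 family, with 0.25. BRAF lay nearest to CASP8, the initiator caspase of death receptors, with a log2 fold of 0.87. BAG1 lay nearest to CYCS, the cytochrome c gene, which had a log2 fold of 0.78 beside the 1.41 of BAG1. IGF1R lay nearest to CRADD, a death domain adaptor, which had a log2 fold of 0.33 beside the -0.56 of IGF1R. DAPK1 lay nearest to HRK, a BH3-only death gene, at a sum of 0.95 cycles, the widest of the 9; HRK was also near the limit, at 33.6 in C-PC cells, against 34.5 in control cells, with a log2 fold of 1.70.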
